A study of Homo sapiens with 21 samples.

Results

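The genes described are the axon guidance ligands and receptors of neuroblastoma cells: semaphorins with their neuropilin and plexin receptors, ephrins with their Eph receptors, SLITs with ROBO receptors, and netrins with UNC5 and DCC receptors. Members were all protein-coding genes of the deposited expression table whose symbols begin with the names of these families, which gave 73 members of 60728 genes. The rule used no measured value, but it was set with earlier results of these data known. They comprised 20 semaphorins, 9 plexins, 2 neuropilins, 8 ephrins, 9 EphA and 5 EphB receptors, 3 SLITs, 4 ROBOs, 6 netrins, and 5 genes in the group of UNC5 receptors and DCC. The pattern of symbols also took UNC50 and UNC5CL, which are not netrin receptors, so 71 members carry the guidance role.

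Semaphorins, ephrins, SLITs and netrins are cues that a growing axon or a migrating cell reads at its leading edge. Their receptors pass the signal to the cytoskeleton, which turns the cell towards the cue or away from it. The neural crest, the origin of the sympathetic lineage from which neuroblastoma arises, uses semaphorin-neuropilin, ephrin-Eph and SLIT-ROBO signals on its way through the embryo. ARID1A and ARID1B are alternative, mutually exclusive subunits of BAF, a chromatin remodelling complex of the mSWI/SNF family.

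SK-N-BE(2), an established human neuroblastoma cell line, was transduced with lentiviral short hairpin RNAs, and polyadenylated RNA was sequenced after 72 h in 21 libraries. There were 7 conditions of 3 libraries: a non-silencing Control, and pairs of hairpin conditions labelled for ARID1A silencing (shARID1A.2, shARID1A.4), for ARID1B silencing (shARID1B.2, shARID1B.3) and for combined silencing (shARID1A/B.2.3, shARID1A/B.4.2). All groups, Control included, carried a lentiviral vector, each label rests on 2 hairpin designs or combinations in 1 cell line, and the labels do not say whether the 3 libraries of a condition came from separate cultures, so p-values measure the spread between these libraries, which may be technical. Libraries held between 27954334 and 41077638 reads assigned to genes (median 34973565). Values are reads divided by the size factor of the library. Fold changes are differences of mean log2(value + 1) with standard errors from limma over all 18584 genes with enough reads. A member was called higher or lower at an adjusted p under 0.05 (limma, Benjamini-Hochberg over all tested genes), and modulated when the log2 fold change was in addition above 1 or below -1. A gene said to rise or fall passed this test. A condition here is a whole culture, so fewer cells of a kind and less RNA per cell cannot be told apart.

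The silenced genes were examined first, and they did not follow all of the labels. ARID1A stood at 6097, 6374 and 6463 in Control, 2169, 2159.9 and 2109 in shARID1A.2, 2289, 2157 and 2284 in shARID1A.4, 1962, 1882 and 1916 in shARID1B.2, 2507, 2479.9 and 2449.7 in shARID1B.3, 5510.3, 5752 and 5714 in shARID1A/B.2.3, and 5589, 5352 and 5379 in shARID1A/B.4.2. ARID1B stood at 5793, 5804 and 5791 in Control, 2252, 2248 and 2224 in shARID1A.2, 3065, 3109.7 and 3126 in shARID1A.4, 5056, 4913 and 5043 in shARID1B.2, 6182, 6038 and 6053 in shARID1B.3, 2540.5, 2651 and 2607 in shARID1A/B.2.3, and 1886, 1881 and 1955 in shARID1A/B.4.2. ARID1A was low in the libraries labelled shARID1A and shARID1B, and ARID1B was low in those labelled shARID1A and shARID1A/B. So both were low under the label shARID1A (ARID1A -1.56 in shARID1A.2 and -1.49 in shARID1A.4, ARID1B -1.37 in shARID1A.2 and -0.90 in shARID1A.4 on the log2 scale). Under the label shARID1B it was ARID1A that was low (ARID1A -1.72 in shARID1B.2 and -1.35 in shARID1B.3), with ARID1B at -0.21 in shARID1B.2 and 0.07 in shARID1B.3. Under the label shARID1A/B it was ARID1B that was low (ARID1B -1.16 in shARID1A/B.2.3 and -1.6 in shARID1A/B.4.2), with ARID1A at -0.16 in shARID1A/B.2.3 and -0.21 in shARID1A/B.4.2. The 12 values passed the test against Control (largest adjusted p 0.00898, limma), and the labels are used below as the submitters wrote them.

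Markers were read to check the labelled cell line. All 8 genes of adrenergic neuroblastoma passed the filter on low reads, and their summed value lay between 65986.9 and 67357.4 in Control and between 49647.4 and 66257.2 in the silencing conditions. The sum hides opposite moves. Of the 8, 3 rose and 4 fell in shARID1A.2, 3 and 3 in shARID1A.4, 1 and 6 in shARID1B.2, and 2 and 6 in shARID1B.3. In shARID1A/B.2.3 it was 4 and 4, and in shARID1A/B.4.2 3 and 4. Over all tested genes the shares were 37.9% and 38.2%, 37% and 36.6%, 31.6% and 34%, 31.9% and 32%, 35.2% and 34%, and 35.1% and 36.1%. SOX10, which defines Schwann cells and glia, was 0 in all 21 libraries, and PECAM1 of endothelial cells reached at most 2.81. The lists of endothelial and blood cells moved between conditions: the 3 endothelial genes summed to between 40.3 and 62.2 in Control and between 1.9 and 99.3 elsewhere, and the 3 blood genes to between 400.5 and 427.3 in Control and between 57.3 and 312.6 elsewhere, nearly all of it PTPRC. All 6 proliferation genes were lower in 5 silencing conditions and 2 of them in shARID1B.3. Their part in the results below was not tested.

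Most guidance families were expressed in Control cells, at levels that spanned a wide range. Levels between genes are compared per length, in TPM, the reads of a gene per exon length (GENCODE 29) scaled to the same sum in every library. In Control 54 of the 73 members reached 1 TPM, 32 reached 10 and 3 reached 100. These 3 were UNC5B (229 ± 5.2 TPM, SD, n = 3), UNC5C (154 ± 4.8), both receptors of netrins, and SLIT3 (103 ± 0.87), a secreted ligand of ROBO receptors. PLXNB2 at 87.2 ± 1.7 TPM led the plexins, EPHB4 at 59.5 ± 1.2 the Eph receptors, SEMA3C at 43.3 ± 1.7 the semaphorins, EFNB1 at 42.7 ± 0.23 the ephrins and ROBO1 at 34.4 ± 0.95 the ROBOs, while SEMA3C, EFNB1, SEMA4C (42.3 ± 1.7) and EFNA2 (41.5 ± 1.3) did not differ beyond their spread. NTN1, the prototype netrin and a ligand of UNC5 and DCC receptors, was close to absent, with 40 reads in all 21 libraries together and at most 6 in any of them. NTN1, EPHA1 (4 reads), EPHA3 (1 read), EPHA5 (29 reads) and ROBO4 (33 reads) were too low to test, which left 68 members. Of these, 56 reached the minimum of the filter, about 10 reads, in all libraries of every condition. Another 8, DCC, EPHA7, EPHA10, EPHB1, EPHB6, NTN4, NTN5 and SEMA6B, did not reach it in Control and passed only through silencing conditions in which they were high. Their values are given below as a description, and the counts of members include them.

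**Figure D1:**
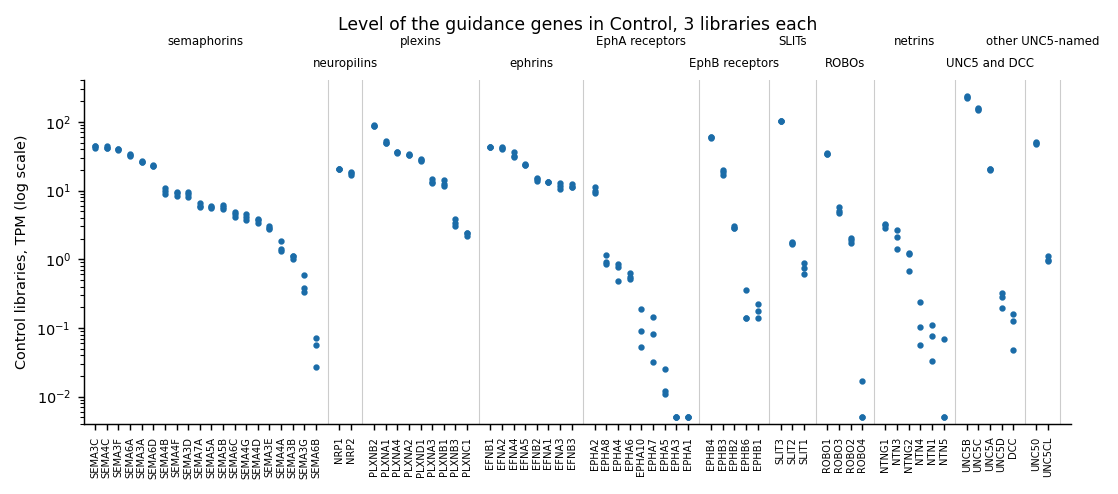
Level of each of the 73 members in the 3 Control libraries (points), in TPM on a log axis, grouped by family and ordered by mean within it; values of 0 are drawn at the lower edge of the axis (0.005). UNC5B, UNC5C and SLIT3 lie above 100 TPM, and 8 of the 9 EphA receptors lie below 1 TPM.

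The comparisons with Control ask which guidance genes change when these subunits are silenced. In shARID1A.2, 27 members rose and 30 fell (of all tested genes 37.9% rose and 38.2% fell), and 13 rose and 11 fell by more than 2-fold (all genes 14.1% and 10.7%). In shARID1A.4, 19 rose and 34 fell (37% and 36.6%), 6 and 8 of them modulated (9.32% and 12%). In shARID1B.2, 24 rose and 22 fell (31.6% and 34%), 6 and 3 modulated (6.86% and 5.12%). In shARID1B.3, 12 rose and 41 fell (31.9% and 32%), 6 and 13 modulated (5.2% and 6.58%). In shARID1A/B.2.3, 26 rose and 27 fell (35.2% and 34%), 7 and 4 modulated (7.04% and 9.1%). In shARID1A/B.4.2, 22 rose and 32 fell (35.1% and 36.1%), 11 and 11 modulated (10.3% and 8.14%). Against these shares the members stood furthest from the background in shARID1B.3, where 60.3% of them fell and 17.6% rose, and their median log2 fold change was -0.38 with 0.0099 over all tested genes.

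Scaling bears on these splits. Dividing by total reads or by the upper quartile, rather than by the deposited size factors, put the median log2 fold change of all genes at 0.187 and 0.197 in shARID1A.2 (0.018 with the deposited size factors), at 0.145 and 0.127 in shARID1B.2 (0.0104) and at 0.2 and 0.176 in shARID1A/B.4.2 (0.016). The share of called members that were higher moved from 47.4% to 55.9% under both scalings in shARID1A.2, from 52.2% to 66% and 64.7% in shARID1B.2, and from 40.7% to 55.2% and 52.5% in shARID1A/B.4.2. The absolute log2 fold change of the members had a median of 0.704 in shARID1A.2 (all genes 0.519), 0.546 in shARID1A.4 (0.487), 0.452 in shARID1B.2 (0.346), 0.62 in shARID1B.3 (0.327), 0.567 in shARID1A/B.2.3 (0.42) and 0.553 in shARID1A/B.4.2 (0.436).

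**Figure D2:**
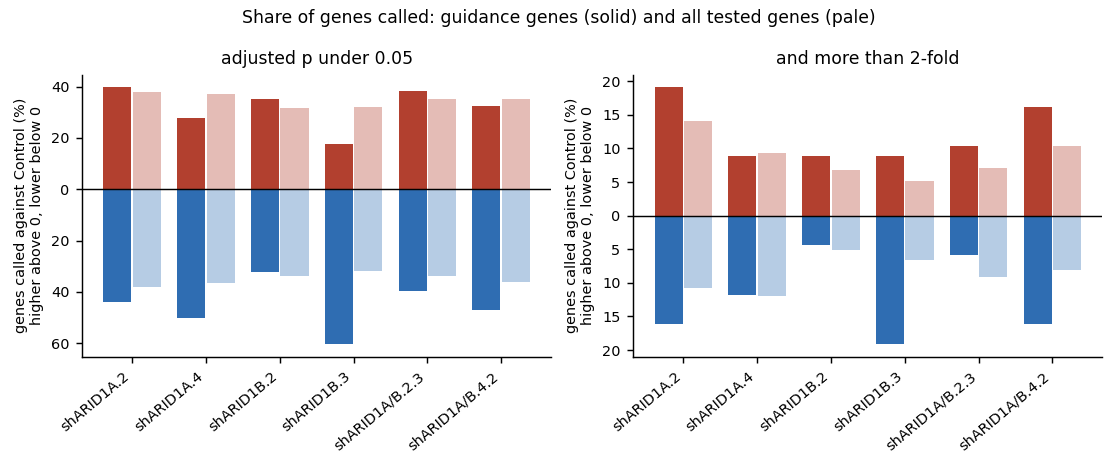
Share of genes called against Control (left, adjusted p under 0.05; right, modulated as well), higher above 0 and lower below 0, for the 68 tested guidance genes (solid bars) and all 18584 tested genes (pale bars) in each silencing condition. In shARID1B.3 the share of guidance genes that fell was 60.3%, beside 32% of all genes.

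Direction often depended on the condition. Of the 68 tested members, 38 (55.9%) were higher in at least 1 comparison with Control and lower in at least 1 other, which held for 41.8% of all tested genes. A further 12 were called only higher and 18 only lower, beside 5176 and 4781 of all 18584 tested genes. Each tested member was called at least once, while 861 of all tested genes never were. The 6 comparisons share the Control libraries, so these counts describe the values and are not independent of each other. SEMA3A, SLIT3, PLXNB1 and PLXND1 fell in all 6 (5.88% of members, with 7.54% of all tested genes lower in all 6), and no member rose in all 6 (6.52% of all tested genes did). These counts depend on the scaling. Under upper-quartile scaling only SEMA3A and SLIT3 of the 4 fell in all 6, under total-read scaling all 4 did, and under both ROBO1 rose in all 6. EPHA4 joined the 4 under edgeR and DESeq2 on the recovered reads.

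**Figure D3:**
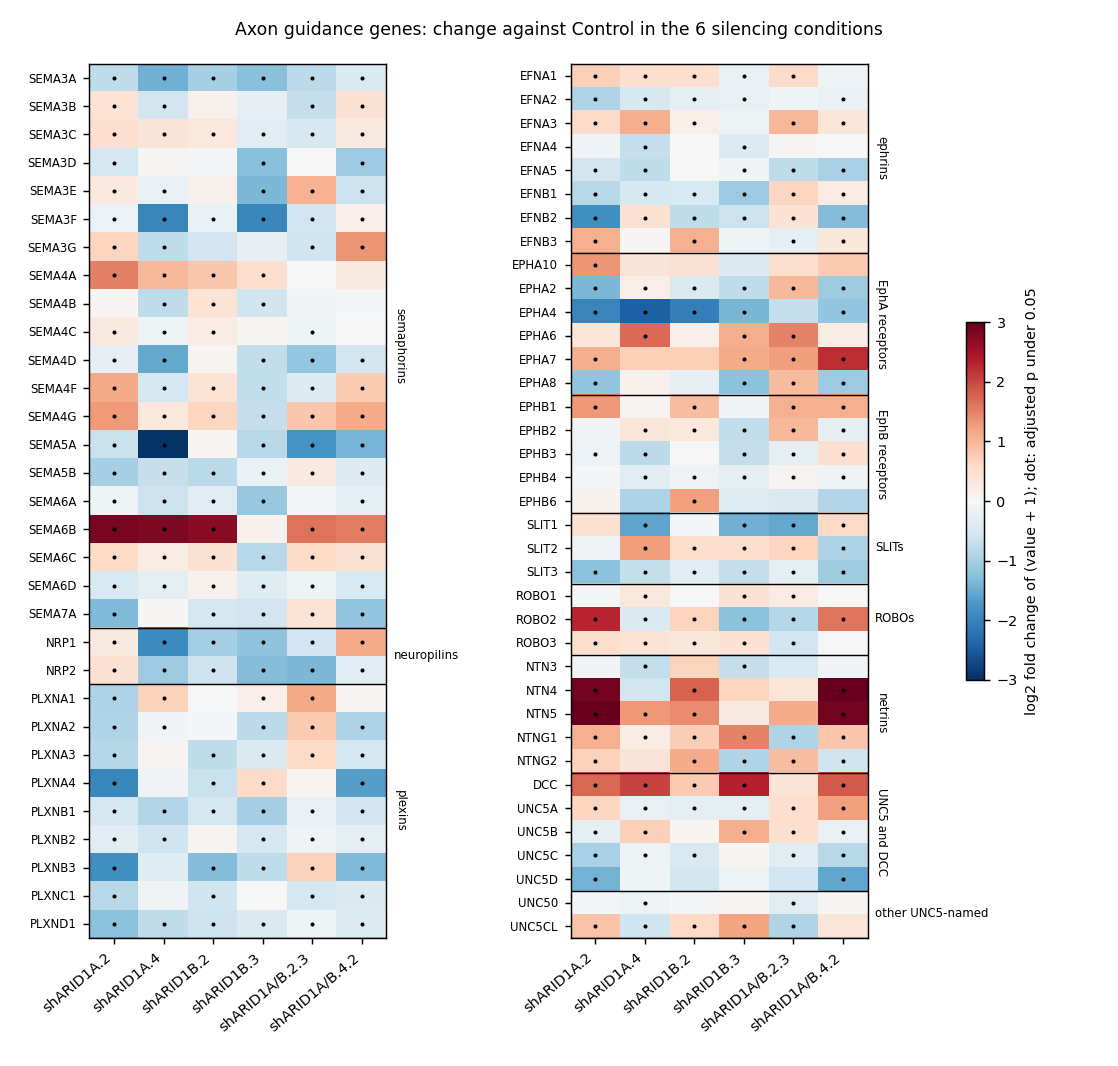
Log2 fold change of (value + 1) against Control for the 68 tested members (rows, by family) in the 6 silencing conditions (columns); red is higher, blue is lower, colours saturate at 3, and a dot marks an adjusted p under 0.05. Rows such as PLXNA4, EFNB2 and ROBO2 change colour between conditions, and SEMA3A, SLIT3, PLXNB1 and PLXND1 are blue in all 6, of which PLXNB1 and PLXND1 lost the call in shARID1A/B.2.3 under upper-quartile scaling.

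The 250 bases upstream of the RefSeq start (GRCh38.p14) are shown for members of both patterns, chosen after their values were seen among those whose upstream window holds no GENCODE 29 exon: SLIT3 and PLXNB1, lower in all 6 conditions with the deposited size factors, and EFNB2, ROBO2 and SLIT1, which moved in both directions. Capitals mark the GC box GGGCGG on either strand.
SLIT3 (chr5:169301140-169301389, minus strand): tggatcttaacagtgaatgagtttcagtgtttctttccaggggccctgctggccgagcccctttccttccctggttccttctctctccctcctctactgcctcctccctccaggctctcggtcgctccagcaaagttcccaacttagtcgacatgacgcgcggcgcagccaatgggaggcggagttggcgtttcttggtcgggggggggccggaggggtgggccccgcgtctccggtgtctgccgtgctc
PLXNB1 (chr3:48430087-48430336, minus strand): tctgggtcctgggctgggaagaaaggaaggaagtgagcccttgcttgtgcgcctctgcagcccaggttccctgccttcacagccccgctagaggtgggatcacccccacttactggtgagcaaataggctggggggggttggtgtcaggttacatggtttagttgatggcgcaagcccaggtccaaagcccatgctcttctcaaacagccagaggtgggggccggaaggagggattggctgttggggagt
EFNB2 (chr13:106535663-106535912, minus strand): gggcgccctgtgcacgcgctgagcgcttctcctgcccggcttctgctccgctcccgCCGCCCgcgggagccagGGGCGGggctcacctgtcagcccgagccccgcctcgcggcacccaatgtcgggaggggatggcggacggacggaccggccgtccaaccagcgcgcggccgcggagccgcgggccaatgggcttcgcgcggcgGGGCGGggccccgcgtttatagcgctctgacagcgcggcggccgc
ROBO2 (chr3:76310630-76310879, plus strand): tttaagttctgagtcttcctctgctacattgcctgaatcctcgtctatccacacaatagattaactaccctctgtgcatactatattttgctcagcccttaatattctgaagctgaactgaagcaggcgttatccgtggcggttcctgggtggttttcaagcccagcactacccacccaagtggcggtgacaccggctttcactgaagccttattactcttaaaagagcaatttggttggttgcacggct
SLIT1 (chr10:97185960-97186209, minus strand): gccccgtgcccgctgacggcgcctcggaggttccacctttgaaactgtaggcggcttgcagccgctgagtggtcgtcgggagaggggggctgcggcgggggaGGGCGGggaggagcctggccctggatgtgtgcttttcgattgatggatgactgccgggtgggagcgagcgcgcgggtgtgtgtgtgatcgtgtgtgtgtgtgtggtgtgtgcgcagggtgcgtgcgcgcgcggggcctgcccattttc
GC boxes differed among these windows: EFNB2 held 3 GC boxes and SLIT1 held 1, while SLIT3, PLXNB1 and ROBO2 held none, and CG dinucleotides numbered 16 in SLIT3, 4 in PLXNB1, 40 in EFNB2, 7 in ROBO2 and 25 in SLIT1. Of the 73 members, 62 had a window in the RefSeq table (the first listed was taken where there were several, as for PLXNB1 and ROBO2, each with 2). A GC box was present in 45 of these 62 (72.6%) and in 42.3% of the windows of all 27305 genes, with median GC contents of 65.0% and 58.0%. All members are protein-coding, while the windows of all genes were not limited to such genes, so the sets are unlike. The other motifs searched on both strands were CACGTG, the E-box bound by MYC proteins, in 6.45% of member windows (6.49% of all), TGANTCA, the AP-1 site, in 1.61% (6.6%), and AGATAA, which GATA factors bind, in 8.06% (9.37%). Of these motifs only the GC box occurred in the windows shown.

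Semaphorins were the largest family, and most of them fell in shARID1B.3. Of 20 tested, 10 rose and 9 fell in shARID1A.2, 5 and 13 in shARID1A.4, 9 and 5 in shARID1B.2, 1 and 15 in shARID1B.3, 6 and 10 in shARID1A/B.2.3, and 8 and 9 in shARID1A/B.4.2. These were 50% and 45%, 25% and 65%, 45% and 25%, 5% and 75%, 30% and 50%, and 40% and 45%, in that order. All tested genes stood at 37.9% and 38.2%, 37% and 36.6%, 31.6% and 34%, 31.9% and 32%, 35.2% and 34%, and 35.1% and 36.1%. Upper-quartile scaling gave 11 and 6, 5 and 11, 11 and 4, 2 and 14, 6 and 7, and 10 and 9 in the same order. Total-read scaling gave the same, save 5 and 13 in shARID1A.4 and 6 and 10 in shARID1A/B.2.3. SEMA3A, a secreted repellent that signals through NRP1 and A-type plexins, fell throughout. SEMA3A stood at 2313, 2286 and 2424 in Control, 1361, 1411 and 1353 in shARID1A.2, 854, 859.8 and 863 in shARID1A.4, 1228, 1138 and 1175 in shARID1B.2, 1109, 870.3 and 992 in shARID1B.3, 1376, 1329.6 and 1337 in shARID1A/B.2.3, and 1721, 1700.2 and 1752 in shARID1A/B.4.2. Every silenced library lay below the Control libraries, with the lowest values in shARID1A.4 (log2 fold change -1.44 ± 0.053, SE, adjusted p = 6.01e-18, limma) and the smallest fall in shARID1A/B.4.2 (-0.44 ± 0.053, adjusted p = 6.61e-08).

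SEMA5A, a transmembrane semaphorin with thrombospondin repeats, had the largest fall of any member. SEMA5A stood at 648, 672 and 701 in Control, 421, 416 and 437 in shARID1A.2, 83.5, 84.4 and 92.8 in shARID1A.4, 678, 684 and 712 in shARID1B.2, 364, 360.1 and 402 in shARID1B.3, 217, 215 and 159.6 in shARID1A/B.2.3, and 229.6, 274 and 265 in shARID1A/B.4.2. SEMA5A fell in shARID1A.2, shARID1A.4, shARID1B.3, shARID1A/B.2.3 and shARID1A/B.4.2 (log2 fold change -0.66, -2.94, -0.84, -1.78 and -1.39), and shARID1B.2 overlapped Control (0.04, adjusted p = 0.734, limma). SEMA3F, a secreted ligand with a preference for NRP2, separated the paired conditions of a label. SEMA3F stood at 1806, 1819 and 1845 in Control, 1622, 1567 and 1694 in shARID1A.2, 502, 442 and 451 in shARID1A.4, 1569, 1534 and 1636 in shARID1B.2, 469.9, 448 and 483 in shARID1B.3, 1291, 1184 and 1224 in shARID1A/B.2.3, and 2028, 1991 and 2038 in shARID1A/B.4.2. It fell by 1.97 on the log2 scale in shARID1A.4 and by 1.96 in shARID1B.3, against -0.16 in shARID1A.2, -0.21 in shARID1B.2, -0.56 in shARID1A/B.2.3 and 0.15 in shARID1A/B.4.2. The small fall in shARID1A.2 turned to 0.018 with upper-quartile scaling and 0.0072 with total-read scaling.

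The other class 3 semaphorins, which are secreted, split by condition. SEMA3C, the most abundant semaphorin, stood at 2671, 2465 and 2666 in Control, 3546, 3710.1 and 3671 in shARID1A.2, 3276, 3523 and 3419 in shARID1A.4, 3229.9, 3164 and 3259.9 in shARID1B.2, 2123, 1959 and 2080.1 in shARID1B.3, 1839.8, 1967 and 1824 in shARID1A/B.2.3, and 3095, 3169 and 3117 in shARID1A/B.4.2. SEMA3C rose in shARID1A.2, shARID1A.4, shARID1B.2 and shARID1A/B.4.2 (log2 fold change 0.49, 0.39, 0.31 and 0.27) and fell in shARID1B.3 and shARID1A/B.2.3 (log2 fold change -0.34 and -0.47), with no overlap with Control in any of the 6. SEMA3E, the ligand of PLXND1, stood at 233, 222 and 248 in Control, 294, 290.5 and 279.5 in shARID1A.2, 200.1, 195 and 208 in shARID1A.4, 249, 250.1 and 270.3 in shARID1B.2, 97.6, 78.9 and 96.7 in shARID1B.3, 508, 498 and 441 in shARID1A/B.2.3, and 149, 152 and 142 in shARID1A/B.4.2. Its extremes were a rise in shARID1A/B.2.3 (1.04 ± 0.082) and a fall in shARID1B.3 (-1.36 ± 0.082, larger adjusted p 3.45e-11, limma), with smaller changes of 0.30 in shARID1A.2, -0.22 in shARID1A.4 and -0.66 in shARID1A/B.4.2. SEMA3B and SEMA3G were low and split within labels. SEMA3B stood at 56.4, 60.4 and 62.6 in Control, 85.6, 70.0 and 83.5 in shARID1A.2, 34, 45.2 and 42.9 in shARID1A.4, 70.9, 57.9 and 67.6 in shARID1B.2, 53.8, 49.4 and 47.5 in shARID1B.3, 30.4, 32.3 and 46.7 in shARID1A/B.2.3, and 92, 71.8 and 81.5 in shARID1A/B.4.2. SEMA3B rose in shARID1A.2 and shARID1A/B.4.2 (log2 fold change 0.40 and 0.44) and fell in shARID1A.4 and shARID1A/B.2.3 (log2 fold change -0.55 and -0.72). SEMA3G stood at 28.2, 15.7 and 18.5 in Control, 36.6, 24.7 and 36.8 in shARID1A.2, 10.7, 11.9 and 12 in shARID1A.4, 14.9, 10.4 and 15.1 in shARID1B.2, 15.9, 17.1 and 17.3 in shARID1B.3, 16.2, 13.6 and 9.73 in shARID1A/B.2.3, and 56.5, 47.1 and 53.4 in shARID1A/B.4.2. SEMA3G rose in shARID1A.2 and shARID1A/B.4.2 (log2 fold change 0.65 and 1.33) and fell in shARID1A.4 and shARID1A/B.2.3 (log2 fold change -0.76 and -0.61), from 9 to 62 reads a library, and its fold changes carry standard errors of 0.25. SEMA3D fell in shARID1A.2, shARID1B.3 and shARID1A/B.4.2 (log2 fold change -0.51, -1.24 and -1.08) and rose in no condition.

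Class 4 semaphorins are transmembrane ligands, several of which bind B-type plexins. SEMA4A stood at 92.8, 83.9 and 121 in Control, 289, 264 and 288 in shARID1A.2, 201, 202 and 178 in shARID1A.4, 177, 157 and 184 in shARID1B.2, 131, 139.7 and 142 in shARID1B.3, 102, 86.5 and 102 in shARID1A/B.2.3, and 112, 134 and 109 in shARID1A/B.4.2. It rose in shARID1A.2, shARID1A.4, shARID1B.2 and shARID1B.3 (log2 fold change 1.5, 0.97, 0.81 and 0.49), and did not pass the test in shARID1A/B.2.3 and shARID1A/B.4.2 (-0.02 and 0.26). SEMA4F stood at 552, 565 and 502 in Control, 1207, 1178 and 1175 in shARID1A.2, 343, 394 and 378 in shARID1A.4, 708, 718 and 717 in shARID1B.2, 338, 313 and 316 in shARID1B.3, 416, 411 and 419 in shARID1A/B.2.3, and 955, 946 and 906 in shARID1A/B.4.2. SEMA4F rose in shARID1A.2, shARID1B.2 and shARID1A/B.4.2 (log2 fold change 1.14, 0.41 and 0.79) and fell in shARID1A.4, shARID1B.3 and shARID1A/B.2.3 (log2 fold change -0.54, -0.74 and -0.38), so each label held 1 condition above and 1 below Control. SEMA4G stood at 204, 228 and 189 in Control, 474, 521 and 510.0 in shARID1A.2, 266, 272 and 239 in shARID1A.4, 305, 353 and 321 in shARID1B.2, 150.3, 110.2 and 123 in shARID1B.3, 323, 424 and 356 in shARID1A/B.2.3, and 488, 402 and 461 in shARID1A/B.4.2. SEMA4G rose in shARID1A.2, shARID1A.4, shARID1B.2, shARID1A/B.2.3 and shARID1A/B.4.2 (log2 fold change 1.28, 0.32, 0.66, 0.82 and 1.12) and fell in shARID1B.3 (log2 fold change -0.70).

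SEMA4B and SEMA4C moved less. SEMA4B stood at 595, 712 and 673 in Control, 671, 679 and 692 in shARID1A.2, 409, 385 and 379 in shARID1A.4, 917, 814 and 888 in shARID1B.2, 479.8, 415 and 407 in shARID1B.3, 674, 592 and 614 in shARID1A/B.2.3, and 641, 646 and 628 in shARID1A/B.4.2. SEMA4B rose in shARID1B.2 (log2 fold change 0.41), fell in shARID1A.4 and shARID1B.3 (log2 fold change -0.75 and -0.60) and did not pass the test in the others. SEMA4C stood at 2427, 2419.8 and 2631 in Control, 3016, 2929 and 3047 in shARID1A.2, 2281, 2299 and 2260.4 in shARID1A.4, 2833, 2989 and 2916 in shARID1B.2, 2535, 2657 and 2623 in shARID1B.3, 2350.1, 2182 and 2329 in shARID1A/B.2.3, and 2362, 2559 and 2532 in shARID1A/B.4.2. SEMA4C rose in shARID1A.2 and shARID1B.2 (log2 fold change 0.27 and 0.23) and fell in shARID1A.4 and shARID1A/B.2.3 (log2 fold change -0.13 and -0.12), and its value of -0.0046 in shARID1A/B.4.2 turned to 0.18 under total-read scaling. SEMA4D, the ligand of PLXNB1, fell in shARID1A.2, shARID1A.4, shARID1B.3, shARID1A/B.2.3 and shARID1A/B.4.2 (log2 fold change -0.25, -1.54, -0.73, -1.15 and -0.54).

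Among the remaining transmembrane and anchored semaphorins, SEMA7A, which is held to the membrane by a lipid anchor and binds PLXNC1, stood at 209, 235 and 218 in Control, 73.1, 101 and 92.4 in shARID1A.2, 221, 232 and 219.6 in shARID1A.4, 147, 166 and 144 in shARID1B.2, 147, 146 and 149 in shARID1B.3, 303, 278 and 306 in shARID1A/B.2.3, and 116, 76.5 and 99.3 in shARID1A/B.4.2. SEMA7A fell in shARID1A.2, shARID1B.2, shARID1B.3 and shARID1A/B.4.2 (log2 fold change -1.31, -0.53, -0.58 and -1.19). Levels rose in shARID1A/B.2.3 (log2 fold change 0.42). SEMA5B stood at 442, 498 and 473 in Control, 235, 226 and 243 in shARID1A.2, 274, 288 and 307 in shARID1A.4, 239, 303 and 262 in shARID1B.2, 444, 383 and 397 in shARID1B.3, 541, 595 and 603 in shARID1A/B.2.3, and 348, 401 and 335 in shARID1A/B.4.2. SEMA5B fell in shARID1A.2, shARID1A.4, shARID1B.2, shARID1B.3 and shARID1A/B.4.2 (log2 fold change -1, -0.70, -0.82, -0.21 and -0.38) and rose in shARID1A/B.2.3 (log2 fold change 0.30). Both were thus higher than Control only in shARID1A/B.2.3. SEMA6C stood at 233, 272 and 259.8 in Control, 411, 348 and 386 in shARID1A.2, 337, 285 and 272 in shARID1A.4, 339, 365 and 331 in shARID1B.2, 154, 133 and 137 in shARID1B.3, 359, 355 and 401 in shARID1A/B.2.3, and 328, 345 and 368 in shARID1A/B.4.2. SEMA6C rose in shARID1A.2, shARID1A.4, shARID1B.2, shARID1A/B.2.3 and shARID1A/B.4.2 (log2 fold change 0.58, 0.22, 0.44, 0.54 and 0.45) and fell in shARID1B.3 (log2 fold change -0.84), the same directions as SEMA4G.

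SEMA6D stood at 1925, 1852 and 1869 in Control, 1350.3, 1424 and 1353 in shARID1A.2, 1507, 1566 and 1561 in shARID1A.4, 2045, 2044 and 1997 in shARID1B.2, 1422, 1528 and 1471 in shARID1B.3, 1659.6, 1737 and 1811 in shARID1A/B.2.3, and 1313, 1432 and 1382 in shARID1A/B.4.2. Its only rise was in shARID1B.2 (0.11 ± 0.037, adjusted p = 0.0138, limma) beside 5 falls of -0.12 to -0.45. SEMA6A, a ligand of PLXNA2 and PLXNA4, fell in shARID1A.2, shARID1A.4, shARID1B.2, shARID1B.3 and shARID1A/B.4.2 (log2 fold change -0.13, -0.64, -0.31, -1.13 and -0.30), and the value in shARID1A.2 turned to 0.049 under upper-quartile and 0.038 under total-read scaling. SEMA6B, singled out after its values were seen, stood at 2.35, 1.12 and 3.08 in Control, 24.9, 18.5 and 20.1 in shARID1A.2, 30.1, 20.2 and 14 in shARID1A.4, 17.5, 12.7 and 30.2 in shARID1B.2, 3.98, 2.85 and 0.86 in shARID1B.3, 10.1, 10.4 and 5.84 in shARID1A/B.2.3, and 10.02, 8.5 and 5.62 in shARID1A/B.4.2. It had at most 3 reads in each of the Control libraries, and reached the filter's minimum in shARID1A.2, shARID1A.4 and shARID1B.2 alone.

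Neuropilins, the co-receptors that class 3 semaphorins need to reach A-type plexins, fell together in 4 conditions. NRP1 stood at 2279.8, 2222 and 2276 in Control, 2642, 2745 and 2767 in shARID1A.2, 626, 577 and 601 in shARID1A.4, 1135, 1139 and 1095 in shARID1B.2, 851, 1118 and 971 in shARID1B.3, 1469, 1522 and 1541 in shARID1A/B.2.3, and 4776, 4987 and 4979.8 in shARID1A/B.4.2. It fell in shARID1A.4, shARID1B.2, shARID1B.3 and shARID1A/B.2.3 (log2 fold change -1.91, -1.01, -1.21 and -0.58) and rose in shARID1A.2 and shARID1A/B.4.2 (log2 fold change 0.27 and 1.12), with no overlap with Control anywhere. The fall in shARID1A.4 reached -1.91 ± 0.057 (SE, adjusted p = 1.01e-19, limma). NRP2 stood at 2270.4, 2476 and 2418 in Control, 3075, 3310.4 and 3217 in shARID1A.2, 1065, 1143 and 1142 in shARID1A.4, 1633, 1446 and 1577 in shARID1B.2, 1019, 896 and 1001 in shARID1B.3, 965, 919 and 909.7 in shARID1A/B.2.3, and 2077, 1757 and 1834 in shARID1A/B.4.2. NRP2 rose in shARID1A.2 (log2 fold change 0.42) and fell in the other 5 conditions, by 0.34, 0.62, 1.1, 1.3 and 1.36 on the log2 scale in shARID1A/B.4.2, shARID1B.2, shARID1A.4, shARID1B.3 and shARID1A/B.2.3. In shARID1A/B.4.2 the neuropilins parted, since NRP1 rose to more than any other condition held and NRP2 fell.

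Plexins, the signalling receptors for semaphorins, fell as a family in shARID1A.2. All 9 were lower there, and 8 of 9 in shARID1A/B.4.2, beside 4 in shARID1A.4, 6 in shARID1B.2, 6 in shARID1B.3 and 4 in shARID1A/B.2.3, and the number that rose was 0, 0, 1, 0, 2 and 4 in the same order. As shares, 100%, 88.9%, 44.4%, 66.7%, 66.7% and 44.4% of plexins fell, and 0%, 0%, 11.1%, 0%, 22.2% and 44.4% rose. Of all tested genes 38.2%, 36.1%, 36.6%, 34%, 32% and 34% fell in that order, and 37.9%, 35.1%, 37%, 31.6%, 31.9% and 35.2% rose. The count of 9 held under upper-quartile, total-read and TMM scaling and with DESeq2, while in shARID1A/B.4.2 it ranged from 7 to 8, with PLXNA1 called higher in 3 of these 4. In shARID1A/B.2.3 the number that fell ranged from 1 to 4 under them. The median log2 fold change of the plexins was -0.91 in shARID1A.2 and -0.51 in shARID1A/B.4.2.

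PLXNA4, a partner of neuropilins in class 3 semaphorin signalling, had the largest fall in the family. PLXNA4 stood at 5776, 5627 and 5611 in Control, 1433, 1447 and 1477 in shARID1A.2, 5440.2, 5243 and 5255 in shARID1A.4, 3440.0, 3673 and 3582 in shARID1B.2, 7589.7, 9668 and 8353 in shARID1B.3, 5528, 6096 and 6041 in shARID1A/B.2.3, and 1624, 2065 and 1714 in shARID1A/B.4.2. PLXNA4 fell in shARID1A.2, shARID1B.2 and shARID1A/B.4.2 (log2 fold change -1.96, -0.67 and -1.66) and rose in shARID1B.3 (log2 fold change 0.58), and did not pass the test in shARID1A.4 and shARID1A/B.2.3 (-0.09 and 0.05). PLXNB3 stood at 207, 257 and 231 in Control, 64, 52.5 and 76.8 in shARID1A.2, 186, 178 and 176 in shARID1A.4, 93.7, 75.2 and 113 in shARID1B.2, 150.3, 124 and 132 in shARID1B.3, 343, 415 and 367 in shARID1A/B.2.3, and 68.3, 119.7 and 93.7 in shARID1A/B.4.2. PLXNB3 fell in shARID1A.2, shARID1B.2, shARID1B.3 and shARID1A/B.4.2 (log2 fold change -1.84, -1.31, -0.77 and -1.32) and rose in shARID1A/B.2.3 (log2 fold change 0.69). PLXNA1 stood at 5224, 5479 and 5277 in Control, 2934, 2613 and 2868 in shARID1A.2, 8928, 8509.6 and 8524 in shARID1A.4, 5303, 5317 and 5566 in shARID1B.2, 6299, 5890.0 and 5673 in shARID1B.3, 11519.8, 11968 and 11768 in shARID1A/B.2.3, and 5279.7, 5735 and 5657 in shARID1A/B.4.2. PLXNA1 fell in shARID1A.2 (log2 fold change -0.93) and rose in shARID1A.4, shARID1B.3 and shARID1A/B.2.3 (log2 fold change 0.70, 0.16 and 1.14), and the values in shARID1A.2 and shARID1A/B.2.3 were its lowest and highest.

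PLXNA2 stood at 4298, 4478 and 4398 in Control, 2321, 2387 and 2297 in shARID1A.2, 4351, 4134 and 3985 in shARID1A.4, 4226, 4363 and 4209 in shARID1B.2, 2557, 2543 and 2545 in shARID1B.3, 7307, 7922 and 7359 in shARID1A/B.2.3, and 2214, 2417 and 2288 in shARID1A/B.4.2. PLXNA2 fell in shARID1A.2, shARID1A.4, shARID1B.3 and shARID1A/B.4.2 (log2 fold change -0.91, -0.08, -0.78 and -0.93) and rose in shARID1A/B.2.3 (log2 fold change 0.78), where the value in shARID1A.4 turned to 0.0057 under upper-quartile scaling. PLXNA3 stood at 1422, 1635 and 1523 in Control, 828, 837 and 869.8 in shARID1A.2, 1714, 1545 and 1596 in shARID1A.4, 911, 904 and 885 in shARID1B.2, 1138, 1140.2 and 1104 in shARID1B.3, 2176, 2385 and 2241 in shARID1A/B.2.3, and 1041, 1102 and 1069 in shARID1A/B.4.2. PLXNA3 fell in shARID1A.2, shARID1B.2, shARID1B.3 and shARID1A/B.4.2 (log2 fold change -0.85, -0.76, -0.44 and -0.51). The gene rose in shARID1A/B.2.3 (log2 fold change 0.57). PLXNA1, PLXNA2, PLXNA3 and PLXNB3 thus all rose in shARID1A/B.2.3 and fell in shARID1A.2.

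PLXNB1 and PLXND1 fell in all 6 conditions with the deposited size factors and in 5 under upper-quartile scaling, where shARID1A/B.2.3 no longer passed (-0.15, adjusted p = 0.0616, and -0.065, adjusted p = 0.124, limma). PLXNB1, the SEMA4D receptor, fell by between 0.22 in shARID1A/B.2.3 and 1 in shARID1B.3 on the log2 scale, and PLXND1 by between 0.14 in shARID1A/B.2.3 and 1.24 in shARID1A.2 (largest adjusted p 0.00557 for PLXNB1 and 0.00174 for PLXND1, limma). PLXNB2, the most abundant plexin, stood at 5936, 6126 and 6107 in Control, 4851, 4508 and 4939 in shARID1A.2, 4063, 3872 and 3994 in shARID1A.4, 6196, 6394 and 6521 in shARID1B.2, 4390.2, 4304 and 3963 in shARID1B.3, 5570.0, 5714 and 5696 in shARID1A/B.2.3, and 4628, 5319 and 5232 in shARID1A/B.4.2. It fell in shARID1A.2, shARID1A.4, shARID1B.3, shARID1A/B.2.3 and shARID1A/B.4.2 (log2 fold change -0.35, -0.61, -0.52, -0.10 and -0.26), and did not pass the test in shARID1B.2 (0.07). PLXNC1 fell in shARID1A.2, shARID1B.2, shARID1A/B.2.3 and shARID1A/B.4.2 (log2 fold change -0.82, -0.60, -0.53 and -0.44).

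**Figure D4:**
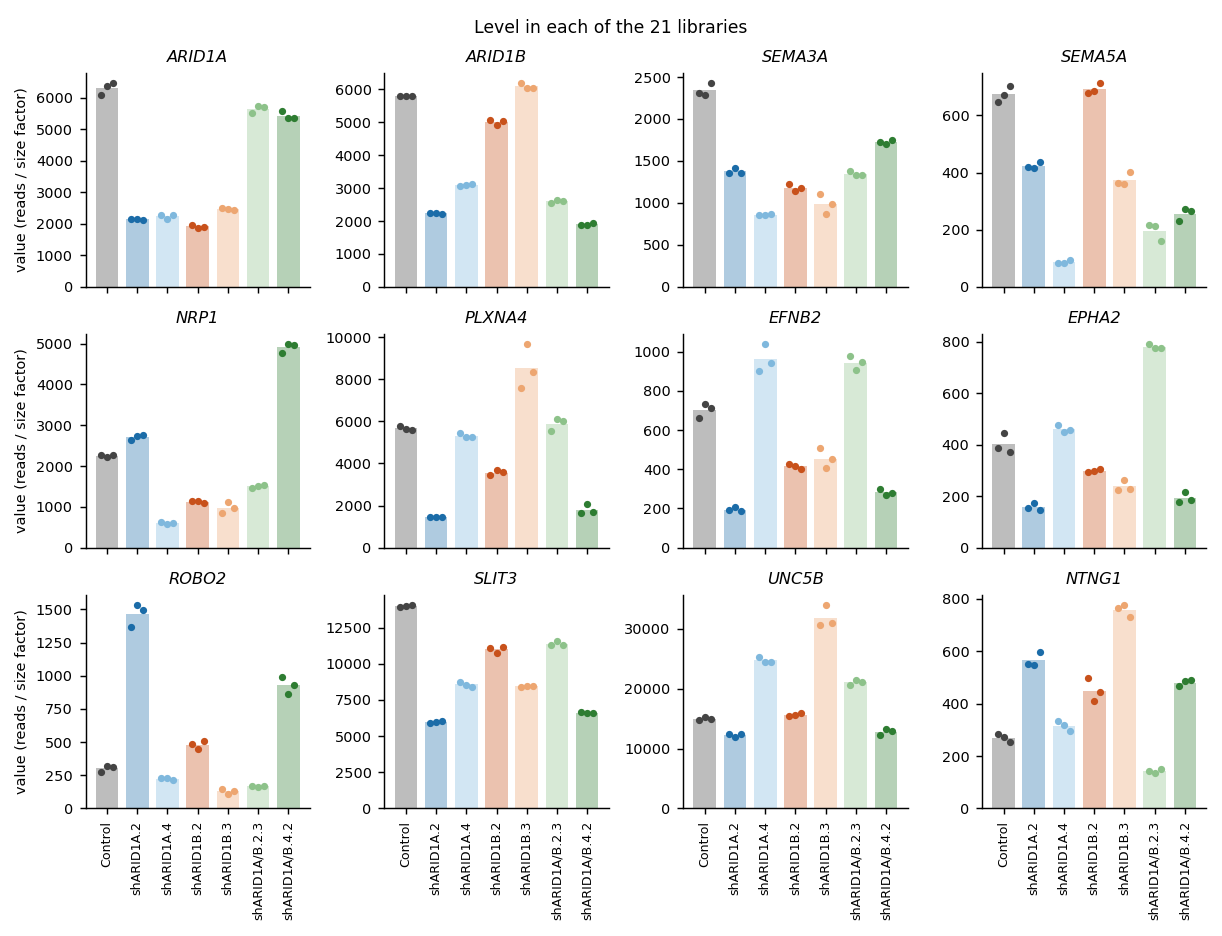
Deposited value (reads divided by size factor, linear axis from 0) of ARID1A, ARID1B and 10 guidance genes in each of the 21 libraries; points are libraries and bars are means of 3. ARID1B is near Control in both conditions labelled shARID1B, where ARID1A is low, and NRP1 in shARID1A/B.4.2 lies between 4776 and 4987, above all other libraries.

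Ephrins are the membrane-held ligands of Eph receptors: the A class is lipid-anchored and the B class spans the membrane. Of 8 tested, 3 rose and 4 fell in shARID1A.2, 3 and 4 in shARID1A.4, 3 and 3 in shARID1B.2, 0 and 6 in shARID1B.3, 4 and 2 in shARID1A/B.2.3, and 3 and 3 in shARID1A/B.4.2. These were 37.5% and 50%, 37.5% and 50%, 37.5% and 37.5%, 0% and 75%, 50% and 25%, and 37.5% and 37.5%. All tested genes stood at 37.9% and 38.2%, 37% and 36.6%, 31.6% and 34%, 31.9% and 32%, 35.2% and 34%, and 35.1% and 36.1%. Upper-quartile scaling gave 4 and 2 in shARID1B.2, 0 and 4 in shARID1B.3 and 3 and 2 in shARID1A/B.4.2. Total-read scaling gave 4 and 2, 0 and 5, and 4 and 2 there. EFNB2, a ligand of EPHB4 and marker of arterial endothelium, had the widest swing. EFNB2 stood at 662, 735 and 713 in Control, 193, 206 and 185 in shARID1A.2, 899, 1038 and 944 in shARID1A.4, 425, 418 and 400.1 in shARID1B.2, 507, 405 and 449.9 in shARID1B.3, 977, 909 and 946 in shARID1A/B.2.3, and 302, 271 and 277 in shARID1A/B.4.2. EFNB2 fell in shARID1A.2, shARID1B.2, shARID1B.3 and shARID1A/B.4.2 (log2 fold change -1.85, -0.76, -0.64 and -1.31) and rose in shARID1A.4 and shARID1A/B.2.3 (log2 fold change 0.45 and 0.42), and the 3 libraries of shARID1A.2 and of shARID1A/B.4.2 lay below all others. EFNB1, the most abundant ephrin, stood at 1359, 1345 and 1359 in Control, 781, 763 and 742 in shARID1A.2, 948, 977 and 986 in shARID1A.4, 958, 1000.2 and 1010.2 in shARID1B.2, 666, 649.9 and 587 in shARID1B.3, 2111, 2077 and 2186 in shARID1A/B.2.3, and 1545, 1696 and 1603 in shARID1A/B.4.2. EFNB1 fell in shARID1A.2, shARID1A.4, shARID1B.2 and shARID1B.3 (log2 fold change -0.83, -0.48, -0.45 and -1.1) and rose in shARID1A/B.2.3 and shARID1A/B.4.2 (log2 fold change 0.65 and 0.25). Its direction thus went with the label, and EFNB1 was lower in the shARID1A than in the shARID1A/B conditions (log2 difference -1.11 ± 0.03, SE, adjusted p = 1.46e-19, limma).

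EFNB3 stood at 344, 377 and 345 in Control, 730.4, 761 and 727 in shARID1A.2, 367, 375 and 349 in shARID1A.4, 755, 717 and 747 in shARID1B.2, 321, 314 and 347 in shARID1B.3, 303, 279 and 305 in shARID1A/B.2.3, and 447, 427 and 475 in shARID1A/B.4.2. EFNB3 rose in shARID1A.2, shARID1B.2 and shARID1A/B.4.2 (log2 fold change 1.06, 1.06 and 0.34) and fell in shARID1A/B.2.3 (log2 fold change -0.27). EFNA1 stood at 322, 319 and 328 in Control, 544, 504 and 541 in shARID1A.2, 457, 488 and 440.1 in shARID1A.4, 456, 447 and 464 in shARID1B.2, 289.7, 296 and 249.6 in shARID1B.3, 478, 502 and 473 in shARID1A/B.2.3, and 317, 300.5 and 282 in shARID1A/B.4.2. EFNA1 rose in shARID1A.2, shARID1A.4, shARID1B.2 and shARID1A/B.2.3 (log2 fold change 0.71, 0.51, 0.50 and 0.58). Levels fell in shARID1B.3 (log2 fold change -0.22). EFNA3 stood at 190.3, 213 and 240.3 in Control, 336, 306 and 315 in shARID1A.2, 461, 484 and 424 in shARID1A.4, 258, 252 and 225 in shARID1B.2, 214, 174 and 191 in shARID1B.3, 429, 416 and 439.8 in shARID1A/B.2.3, and 273, 261 and 286 in shARID1A/B.4.2. EFNA3 rose in shARID1A.2, shARID1A.4, shARID1B.2, shARID1A/B.2.3 and shARID1A/B.4.2 (log2 fold change 0.58, 1.09, 0.20, 1 and 0.35), and did not pass the test in shARID1B.3 (-0.15).

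EFNA5, a repellent cue of retinal axons, stood at 1305, 1264 and 1308 in Control, 850.1, 884 and 909 in shARID1A.2, 742, 742 and 788 in shARID1A.4, 1256, 1312 and 1263 in shARID1B.2, 1189, 1223 and 1202 in shARID1B.3, 758, 775 and 768 in shARID1A/B.2.3, and 676, 657 and 655 in shARID1A/B.4.2. EFNA5 fell in shARID1A.2, shARID1A.4, shARID1B.3, shARID1A/B.2.3 and shARID1A/B.4.2 (log2 fold change -0.55, -0.77, -0.10, -0.75 and -0.96), and its value of -0.02 in shARID1B.2 did not pass the test and turned to 0.12 under total-read scaling. EFNA2 fell in shARID1A.2, shARID1A.4, shARID1B.2, shARID1B.3 and shARID1A/B.4.2 (log2 fold change -0.91, -0.49, -0.28, -0.23 and -0.21), and EFNA4 fell in shARID1A.4 and shARID1B.3 (log2 fold change -0.71 and -0.40).

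Eph receptors are receptor tyrosine kinases that also signal back into the ephrin-bearing cell. EPHA2 stood at 389, 445 and 371 in Control, 153, 173 and 147 in shARID1A.2, 477, 448 and 456 in shARID1A.4, 293, 296 and 306 in shARID1B.2, 225, 261 and 227 in shARID1B.3, 791, 774 and 777 in shARID1A/B.2.3, and 177, 218 and 184 in shARID1A/B.4.2. It fell in shARID1A.2, shARID1B.2, shARID1B.3 and shARID1A/B.4.2 (log2 fold change -1.34, -0.42, -0.75 and -1.06) and rose in shARID1A.4 and shARID1A/B.2.3 (log2 fold change 0.20 and 0.96), the same directions as EFNB2. EPHA8 stood at 47, 59.3 and 44.2 in Control, 24.1, 21.6 and 18.9 in shARID1A.2, 55.4, 60.6 and 47.9 in shARID1A.4, 28, 54.4 and 48 in shARID1B.2, 30.9, 12.3 and 22.4 in shARID1B.3, 99.2, 104 and 87.6 in shARID1A/B.2.3, and 24.6, 21.6 and 22.5 in shARID1A/B.4.2. EPHA8 fell in shARID1A.2, shARID1B.3 and shARID1A/B.4.2 (log2 fold change -1.18, -1.24 and -1.09) and rose in shARID1A/B.2.3 (log2 fold change 0.95). Of the 6 EphA receptors tested, 2 rose and 3 fell in shARID1A.2, 2 and 1 in shARID1A.4, 0 and 2 in shARID1B.2, 2 and 3 in shARID1B.3, 4 and 0 in shARID1A/B.2.3, and 1 and 3 in shARID1A/B.4.2. These were 33.3% and 50%, 33.3% and 16.7%, 0% and 33.3%, 33.3% and 50%, 66.7% and 0%, and 16.7% and 50%. All tested genes stood at 37.9% and 38.2%, 37% and 36.6%, 31.6% and 34%, 31.9% and 32%, 35.2% and 34%, and 35.1% and 36.1%. Rises became 3 in shARID1A.2 and 2 in shARID1A/B.4.2 under upper-quartile or total-read scaling. EPHA4, a receptor for both ephrin classes that was named after its values were seen, fell in shARID1A.2, shARID1A.4, shARID1B.2, shARID1B.3 and shARID1A/B.4.2 (log2 fold change -1.98, -2.46, -2.05, -1.38 and -1.19) from 35.2, 56 and 62.6 in Control. EPHA6 rose in shARID1A.4, shARID1B.3 and shARID1A/B.2.3 (log2 fold change 1.69, 1.08 and 1.49), from a Control mean of 0.568 TPM. EPHA7 and EPHA10 had 2 to 10 and 4 to 13 reads in the Control libraries, and at most 37 and 26 reads in any library.

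EPHB4, the most abundant Eph receptor, changed little. EPHB4 stood at 3575, 3666 and 3744 in Control, 3594, 3554 and 3612 in shARID1A.2, 3010.5, 2843 and 2820.2 in shARID1A.4, 3370.0, 3347 and 3552 in shARID1B.2, 3103, 3055 and 2932 in shARID1B.3, 3912, 3763 and 4032 in shARID1A/B.2.3, and 3368, 3573 and 3429.8 in shARID1A/B.4.2. EPHB4 fell in shARID1A.4, shARID1B.2, shARID1B.3 and shARID1A/B.4.2 (log2 fold change -0.34, -0.10, -0.27 and -0.08) and rose in shARID1A/B.2.3 (log2 fold change 0.09), while the values of -0.03, -0.10 and -0.08 in shARID1A.2, shARID1B.2 and shARID1A/B.4.2 turned to 0.14, 0.039 and 0.10 under total-read scaling. EPHB2 stood at 343, 366 and 348 in Control, 311, 354 and 315 in shARID1A.2, 473, 465 and 421 in shARID1A.4, 452, 471 and 402 in shARID1B.2, 208, 217 and 207 in shARID1B.3, 724, 681 and 699.6 in shARID1A/B.2.3, and 291, 296 and 273 in shARID1A/B.4.2. EPHB2 rose in shARID1A.4, shARID1B.2 and shARID1A/B.2.3 (log2 fold change 0.36, 0.32 and 0.99) and fell in shARID1B.3 and shARID1A/B.4.2 (log2 fold change -0.74 and -0.30). EPHB3 stood at 802, 867 and 747 in Control, 689, 694 and 756 in shARID1A.2, 463, 463 and 476 in shARID1A.4, 742, 868 and 827 in shARID1B.2, 514, 513 and 446 in shARID1B.3, 683, 651 and 674 in shARID1A/B.2.3, and 1118, 1119 and 1113 in shARID1A/B.4.2. EPHB3 fell in shARID1A.2, shARID1A.4, shARID1B.3 and shARID1A/B.2.3 (log2 fold change -0.17, -0.78, -0.71 and -0.26) and rose in shARID1A/B.4.2 (log2 fold change 0.47), and the fall in shARID1A.2 turned to 0.0079 under upper-quartile scaling. EPHB1 stood at 11.8, 14.6 and 9.24 in Control and had 7 to 41 reads over all libraries, and EPHB6, which lacks kinase activity, had 2 to 28.

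SLITs are secreted repellents cut from large precursors. SLIT3, the third most abundant member per length, stood at 13903, 14003 and 14057 in Control, 5898, 5959 and 6056 in shARID1A.2, 8731, 8563 and 8421 in shARID1A.4, 11119, 10741 and 11157 in shARID1B.2, 8419, 8467 and 8474 in shARID1B.3, 11322, 11540.2 and 11286 in shARID1A/B.2.3, and 6685, 6626 and 6574 in shARID1A/B.4.2. All 18 silenced libraries lay below Control, with falls from -0.30 ± 0.02 in shARID1A/B.2.3 to -1.23 ± 0.02 in shARID1A.2 (SE, largest adjusted p 1.09e-12, limma). SLIT2 stood at 166, 156 and 164 in Control, 161, 143 and 145 in shARID1A.2, 387, 386 and 386 in shARID1A.4, 221, 229 and 245 in shARID1B.2, 237, 235 and 219 in shARID1B.3, 232, 288 and 243 in shARID1A/B.2.3, and 75.6, 85 and 95.5 in shARID1A/B.4.2. SLIT2 rose in shARID1A.4, shARID1B.2, shARID1B.3 and shARID1A/B.2.3 (log2 fold change 1.25, 0.52, 0.51 and 0.64), fell in shARID1A/B.4.2 (log2 fold change -0.92) and did not pass the test in shARID1A.2 (-0.11). SLIT1 stood at 52.9, 76.1 and 65.7 in Control, 86.4, 94.8 and 85.8 in shARID1A.2, 26.2, 15.5 and 22 in shARID1A.4, 75.3, 52.1 and 59.6 in shARID1B.2, 31.9, 15.2 and 25 in shARID1B.3, 21.3, 21.9 and 21.4 in shARID1A/B.2.3, and 101, 86.5 and 102 in shARID1A/B.4.2. SLIT1 fell in shARID1A.4, shARID1B.3 and shARID1A/B.2.3 (log2 fold change -1.58, -1.44 and -1.53) and rose in shARID1A/B.4.2 (log2 fold change 0.58), and did not pass the test in shARID1A.2 and shARID1B.2 (0.46 and -0.06). SLIT1 and SLIT2 thus moved in opposite directions in shARID1A.4, shARID1B.3, shARID1A/B.2.3 and shARID1A/B.4.2.

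Of the SLIT receptors, ROBO2 varied most. ROBO2 stood at 276, 322 and 309 in Control, 1369, 1533 and 1496 in shARID1A.2, 229, 228 and 216 in shARID1A.4, 488, 447 and 509.5 in shARID1B.2, 149, 108 and 132 in shARID1B.3, 169, 162 and 169 in shARID1A/B.2.3, and 994, 862 and 933 in shARID1A/B.4.2. ROBO2 rose in shARID1A.2, shARID1B.2 and shARID1A/B.4.2 (log2 fold change 2.27, 0.67 and 1.62) and fell in shARID1A.4, shARID1B.3 and shARID1A/B.2.3 (log2 fold change -0.43, -1.22 and -0.85), and no silencing condition overlapped Control. The highest rise was 2.27 ± 0.087 (SE, adjusted p = 1.39e-17, limma) and the deepest fall -1.22 ± 0.087 (adjusted p = 7.82e-12). ROBO1, the most abundant of the family, stood at 3480.2, 3649 and 3626 in Control, 3558, 3484 and 3511 in shARID1A.2, 4409, 4506 and 4496 in shARID1A.4, 3565, 3603 and 3497 in shARID1B.2, 4764, 4883 and 4794 in shARID1B.3, 4234, 4343 and 4272 in shARID1A/B.2.3, and 3617, 3638 and 3528 in shARID1A/B.4.2. ROBO1 rose in shARID1A.4, shARID1B.3 and shARID1A/B.2.3 (log2 fold change 0.32, 0.43 and 0.26), while its values in shARID1A.2 and shARID1B.2, -0.03 and -0.01, did not pass the test and turned to 0.14 and 0.12 under total-read scaling. ROBO3, the receptor of commissural axons, stood at 339, 378 and 320.4 in Control, 548, 465 and 492 in shARID1A.2, 475, 434 and 473 in shARID1A.4, 449, 438 and 429 in shARID1B.2, 467, 461 and 479 in shARID1B.3, 229.8, 247 and 221 in shARID1A/B.2.3, and 343, 349 and 350.3 in shARID1A/B.4.2. It rose in shARID1A.2, shARID1A.4, shARID1B.2 and shARID1B.3 (log2 fold change 0.53, 0.41, 0.34 and 0.44). The gene fell in shARID1A/B.2.3 (log2 fold change -0.57).

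Netrin receptors were the most abundant members, and UNC5B and UNC5C moved unequally. UNC5B, which mediates repulsion from netrins and is known as a dependence receptor, stood at 14867, 15257 and 14885 in Control, 12480.2, 11901 and 12382 in shARID1A.2, 25385, 24529 and 24475 in shARID1A.4, 15432, 15702 and 15931 in shARID1B.2, 30649, 33997 and 31074 in shARID1B.3, 20618, 21445 and 21129 in shARID1A/B.2.3, and 12218, 13338 and 12914 in shARID1A/B.4.2. UNC5B rose in shARID1A.4, shARID1B.3 and shARID1A/B.2.3 (log2 fold change 0.72, 1.09 and 0.49) and fell in shARID1A.2 and shARID1A/B.4.2 (log2 fold change -0.29 and -0.23), and did not pass the test in shARID1B.2 (0.06). The libraries of shARID1B.3 stood furthest above Control (1.09 ± 0.032 on the log2 scale, SE, adjusted p = 2.73e-19, limma). UNC5C fell in shARID1A.2, shARID1A.4, shARID1B.2, shARID1A/B.2.3 and shARID1A/B.4.2 (log2 fold change -0.97, -0.16, -0.45, -0.32 and -0.84), and did not pass the test in shARID1B.3 (0.03). UNC5A stood at 829, 861 and 858 in Control, 1363, 1248 and 1369 in shARID1A.2, 812, 677 and 709 in shARID1A.4, 686, 675 and 755 in shARID1B.2, 840.2, 624 and 667 in shARID1B.3, 1234, 1191 and 1207 in shARID1A/B.2.3, and 2019.5, 1883 and 2088 in shARID1A/B.4.2. UNC5A rose in shARID1A.2, shARID1A/B.2.3 and shARID1A/B.4.2 (log2 fold change 0.64, 0.51 and 1.23) and fell in shARID1A.4, shARID1B.2 and shARID1B.3 (log2 fold change -0.22, -0.27 and -0.27). UNC5D fell in shARID1A.2 and shARID1A/B.4.2 (log2 fold change -1.42 and -1.56) from 20.0, 33.6 and 29.8 in Control. DCC, the attractive netrin receptor, stood at only 5.87, 15.7 and 20.5 in Control and had 5 to 93 reads over all libraries, where the other conditions but not Control reached the filter's minimum.

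The netrins themselves were low. NTNG1, a lipid-anchored netrin-G that does not bind DCC or UNC5 receptors, was the most abundant and stood at 284, 271 and 253 in Control, 551, 546 and 598 in shARID1A.2, 334, 319.9 and 295 in shARID1A.4, 496, 409.8 and 444 in shARID1B.2, 767, 776 and 729 in shARID1B.3, 144, 135 and 149 in shARID1A/B.2.3, and 466, 485 and 489 in shARID1A/B.4.2. NTNG1 rose in shARID1A.2, shARID1A.4, shARID1B.2, shARID1B.3 and shARID1A/B.4.2 (log2 fold change 1.07, 0.23, 0.74, 1.49 and 0.83) and fell in shARID1A/B.2.3 (log2 fold change -0.91). NTNG2 stood at 50.5, 91.8 and 90.4 in Control, 112, 113 and 143 in shARID1A.2, 95.2, 103 and 96.8 in shARID1A.4, 174, 144 and 178 in shARID1B.2, 43.8, 45.6 and 31.1 in shARID1B.3, 136, 151 and 146 in shARID1A/B.2.3, and 40.1, 49.4 and 60.9 in shARID1A/B.4.2. NTNG2 rose in shARID1A.2, shARID1B.2 and shARID1A/B.2.3 (log2 fold change 0.70, 1.12 and 0.94). Levels fell in shARID1B.3 and shARID1A/B.4.2 (log2 fold change -0.90 and -0.59). NTN4, a secreted netrin with laminin-like domains that was named after its values were seen, stood at 9.4, 2.24 and 4.11 in Control, 43.2, 36 and 41.2 in shARID1A.2, 12.2, 19.7 and 24 in shARID1B.2, and 42.8, 59.5 and 54.3 in shARID1A/B.4.2. Those 3 silencing conditions alone reached the filter's minimum for NTN4. NTN5 had at most 2 reads in a Control library and at most 18 in any, with only shARID1A.2 at the minimum. NTN3 fell in shARID1A.4 and shARID1B.3 (log2 fold change -0.71 and -0.69).

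The pair caught by symbol alone is given for completeness. UNC5CL, a cytosolic protein related to UNC5C, stood at 29.4, 33.6 and 28.8 in Control, 55.7, 57.7 and 53.5 in shARID1A.2, 20.4, 19 and 20.0 in shARID1A.4, 43.8, 48.6 and 48.9 in shARID1B.2, 68.7, 79.8 and 65.6 in shARID1B.3, 18.2, 24 and 8.76 in shARID1A/B.2.3, and 32.8, 42.5 and 44 in shARID1A/B.4.2. UNC5CL rose in shARID1A.2, shARID1B.2 and shARID1B.3 (log2 fold change 0.84, 0.61 and 1.2) and fell in shARID1A.4 and shARID1A/B.2.3 (log2 fold change -0.60 and -0.91). UNC50 fell in shARID1A.4 and shARID1A/B.2.3 (log2 fold change -0.15 and -0.33).

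Tested directly, the conditions of a label differed in most members. Between shARID1A.2 and shARID1A.4, 61 of 68 members differed (75.8% of all tested genes), between shARID1B.2 and shARID1B.3 54 (66%), and between shARID1A/B.2.3 and shARID1A/B.4.2 57 (74.9%). Conditions of a label that were called on opposite sides of Control and also differed from each other were found for 14 members under shARID1A (17.1% of all tested genes), 11 under shARID1B (14.5%) and 25 under shARID1A/B (18.5%), and under any label for 36 of 68 (33.4%). The median absolute log2 difference of the members was 0.806, 0.645 and 0.714 in these pairs (all genes 0.526, 0.375 and 0.508). Conditions with different labels could be closer: the smallest median difference of any pair of silencing conditions, 0.334 over the members (0.244 over all tested genes), was between shARID1A.2 and shARID1A/B.4.2, and the largest, 0.874 (0.561), was between shARID1A.2 and shARID1A/B.2.3. By more than 1 on the log2 scale, 5 members differed in the first of these pairs and 31 in the second. The same count was not made over all tested genes, so it is not read as a trait of the members.

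The differences within labels share no library with each other and can be set side by side. However, the numbers in the condition names recur between labels, and the labels do not say whether hairpins were reused. The pairs may therefore not be unrelated. The difference shARID1A.2 minus shARID1A.4 and the difference shARID1A/B.4.2 minus shARID1A/B.2.3 had the same sign in 53 of 68 members (77.9%) and a Pearson's r of 0.836 (Spearman's rho 0.817) across members, beside 80.7%, 0.789 and 0.781 across all 18584 genes. These values describe genes of the same libraries, which are not independent of each other. NTN4 and ROBO2 stood highest in both, and EFNB2, PLXNA4, EPHA2 and PLXNB3 were among the 5 lowest in both. NTN4 reached the filter's minimum only in shARID1A.2, shARID1B.2 and shARID1A/B.4.2, so its high place is bound up with that filter. The r across members includes the 8 that did not reach the minimum in Control, and was not computed without them. For ROBO2 the differences were 2.70 and 2.47, for NRP1 2.17 and 1.70, for EFNB2 -2.30 and -1.73, and for PLXNA4 -1.87 and -1.71. With the difference shARID1B.2 minus shARID1B.3, r was 0.486 for the shARID1A pair and 0.137 for the shARID1A/B pair (all genes 0.473 and 0.129).

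**Figure D5:**
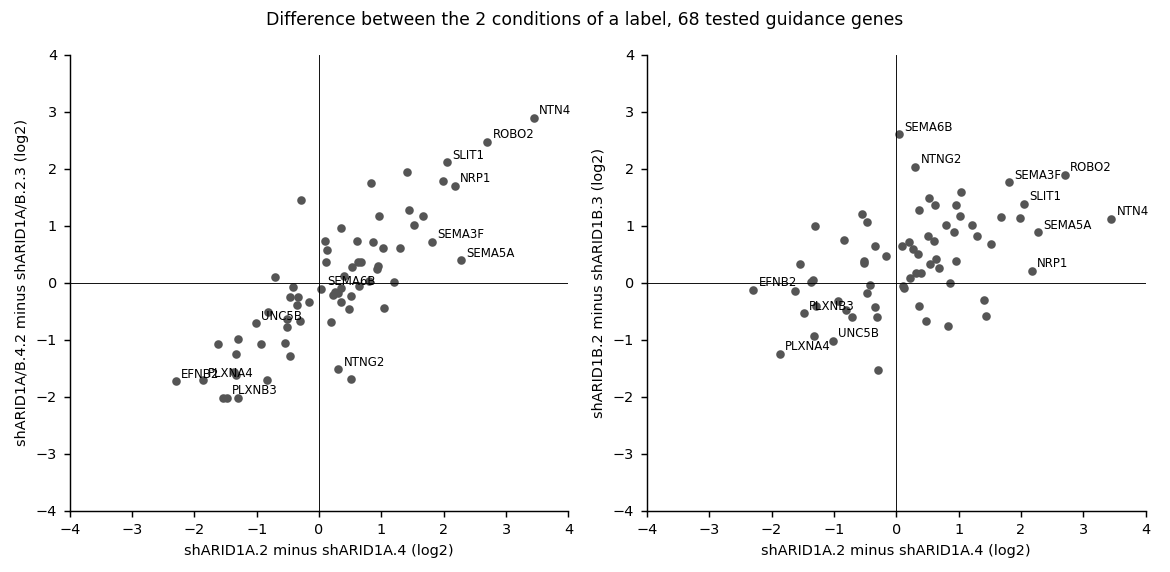
Each point is 1 of the 68 tested members; the horizontal axis is the log2 difference shARID1A.2 minus shARID1A.4, and the vertical axis is shARID1A/B.4.2 minus shARID1A/B.2.3 (left) or shARID1B.2 minus shARID1B.3 (right). On the left most points lie along the rising diagonal (r = 0.836), and on the right they scatter more widely (r = 0.486).

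Averaged over both conditions, the labels differed as well. Between the shARID1A and shARID1B conditions 46 members differed (67.3% of all tested genes), between shARID1A and shARID1A/B 51 (59.2%), and between shARID1A/B and shARID1B 53 (70.2%), with 4, 5 and 8 beyond 2-fold (6.03%, 3.62% and 8.03% of all tested genes). NRP1 was higher in the shARID1A/B than in the shARID1B conditions by 1.38 ± 0.04 on the log2 scale (SE, adjusted p = 8.78e-20, limma), and EFNB1 by 1.22 ± 0.03. SEMA5A was lower in the shARID1A than in the shARID1B conditions (log2 difference -1.4 ± 0.064), and lower in the shARID1A/B than in the shARID1B conditions (-1.19 ± 0.064). For NRP1 these averages join conditions on opposite sides of Control. For SEMA5A they join shARID1A conditions that differed by 2.28 on the log2 scale, and its shARID1A.2 libraries lay above those of shARID1B.3.

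Genes next to the members in the pathways were read from lists that were set with earlier results known. Of 18 tested genes among other guidance ligands and receptors (20 of the 21 listed were found), 7 rose and 6 fell in shARID1A.2, 8 and 6 in shARID1A.4, 7 and 6 in shARID1B.2, 5 and 8 in shARID1B.3, 8 and 4 in shARID1A/B.2.3, and 5 and 6 in shARID1A/B.4.2. These were 38.9% and 33.3%, 44.4% and 33.3%, 38.9% and 33.3%, 27.8% and 44.4%, 44.4% and 22.2%, and 27.8% and 33.3%, in that order. Among 47 tested intracellular effectors, whose split was not recounted under other scalings, 13 rose and 25 fell in shARID1A.2, 15 and 27 in shARID1A.4, 11 and 23 in shARID1B.2, 14 and 22 in shARID1B.3, 16 and 21 in shARID1A/B.2.3, and 13 and 27 in shARID1A/B.4.2. As shares, 27.7% and 53.2%, 31.9% and 57.4%, 23.4% and 48.9%, 29.8% and 46.8%, 34% and 44.7%, and 27.7% and 57.4% rose and fell. The shares of all tested genes, for both lists, were 37.9% and 38.2%, 37% and 36.6%, 31.6% and 34%, 31.9% and 32%, 35.2% and 34%, and 35.1% and 36.1%. DPYSL3, a collapsin response mediator protein, fell by 3.08 in shARID1A.2 and by 1.74 in shARID1A/B.4.2 on the log2 scale, and by 0.78 to 1.5 in the others. SRGAP2, which links ROBO receptors to GTPases, fell by 0.46 to 1.75, and LIMK1, the kinase that acts on cofilin, rose by 0.62 to 1.7 in all 6 conditions. GIPC1, an adaptor of neuropilins and plexins, rose by 0.69 to 0.98. These 4 were named after their values were seen.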

How the data were processed

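RNA-Seq values of 21 libraries were used. Per the labels and the submitters' processing notes, stranded libraries were aligned to GRCh38 with STAR 2.5.3a, quantified with RSEM 1.3.0 and normalized with DESeq2 1.26.0. The annotation and the strand setting of the counting are not given in the sources used here. The authors deposited a signal, reads divided by a size factor per library (0.841 to 1.29), from which whole reads were recovered for 100% of values within 0.02 read.

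Deposited values were analysed as log2(value + 1) with limma 3.58.1 (trend, all 7 conditions in 1 fit) over 18584 genes passing the edgeR 4.0.16 filter, with Benjamini-Hochberg adjustment. The count test that fits recovered reads was an alternative. Members, gene lists and tests were chosen with earlier results of these data known. Members named with every library are the 3 largest rises and falls per label that were called in both conditions with a mean value of at least 50, members called in both directions, and the most abundant per family, and others are named where stated. Alternatives were DESeq2 1.42.0, edgeR with TMM, other scalings, pseudocounts, filters, subsets, a replicate block and leaving out each library. The script was tested on simulated data. Columns of the authors' comparisons (fold changes, p-values) were left out. FLRT1 was not analysed here. The summed level of the glial marker list is not reported here. Antisense genes of members reached at most 28.1 in any library, and replicate libraries differed by more than sampling noise.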

Additional observations from a re-analysis of the deposited data

Results flagged for a closer look

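A member drew attention where the paired conditions of a label were called on opposite sides of Control and also differed from each other by the limma test. This held for 50 differences in 36 members, with 14 differences under the label shARID1A (17.1% of all tested genes met the same rule), 11 under shARID1B (14.5%) and 25 under shARID1A/B (18.5%, and 33.4% under any label), and with a largest adjusted p of 3.65e-05 (limma). The values below are log2 differences, with n = 3 libraries on each side, and no explanation of them was tested.

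Under the label shARID1A the ligands and receptors lower in shARID1A.2 than in shARID1A.4 were EFNB2 (-2.3), PLXNA1 (-1.63), EPHA2 (-1.54) and UNC5B (-1.02). Those higher in shARID1A.2 were SEMA4C (0.394), SEMA3E (0.518), UNC5A (0.859), SEMA3B (0.958), SEMA3G (1.41), UNC5CL (1.44), NRP2 (1.52), SEMA4F (1.68), NRP1 (2.17) and ROBO2 (2.7). The neuropilins NRP1 and NRP2, the co-receptors of class 3 semaphorins, were thus both above Control in shARID1A.2 and below it in shARID1A.4.

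Under the label shARID1B, PLXNA4 (-1.25) was lower in shARID1B.2 than in shARID1B.3. The others were higher in shARID1B.2, namely SEMA6D (0.462), SEMA3C (0.648), EFNA1 (0.712), SEMA4B (1.01), EPHB2 (1.06), SEMA4F (1.15), SEMA6C (1.28), SEMA4G (1.36), ROBO2 (1.89) and NTNG2 (2.03). Of these 10, 6 were semaphorins, a family with 20 of the 68 tested members. By the direct test alone, 16 of the 20 semaphorins and 40 of the 68 members were higher in shARID1B.2 than in shARID1B.3.

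Under the label shARID1A/B the members lower in shARID1A/B.2.3 than in shARID1A/B.4.2 were ROBO2 (-2.47), SLIT1 (-2.11), SEMA3G (-1.94), NTNG1 (-1.74), NRP1 (-1.7), SEMA4F (-1.17), SEMA3B (-1.16), EPHB3 (-0.737), SEMA3C (-0.737), SEMA3F (-0.712) and EFNB3 (-0.604). Those higher in shARID1A/B.2.3 were EPHB4 (0.175), SEMA5B (0.683), UNC5B (0.717), PLXNA3 (1.08), EPHB2 (1.29), NTNG2 (1.52), SLIT2 (1.56), SEMA7A (1.61), SEMA3E (1.7), PLXNA2 (1.71), EFNB2 (1.73), PLXNB3 (2.02), EPHA2 (2.02) and EPHA8 (2.03), among them the plexins PLXNA2, PLXNA3 and PLXNB3. The side of Control taken by EPHB4 in shARID1A/B.4.2 turned under 2 other scalings. ROBO2 and SEMA4F had such a difference under all 3 labels.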

How the results depend on the processing

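Counts of called members stayed within 1.5 times of the reported ones under all alternatives run: 47 to 59 in shARID1A.2, 48 to 54 in shARID1A.4, 39 to 53 in shARID1B.2, 49 to 54 in shARID1B.3, 47 to 55 in shARID1A/B.2.3 and 46 to 59 in shARID1A/B.4.2 against Control, 54 to 63, 49 to 55 and 50 to 57 within the labels shARID1A, shARID1B and shARID1A/B, and 41 to 46, 46 to 52 and 45 to 57 between labels. Leaving out each library in turn lost 102 of 1896 repeated calls, gained 38 and turned none. On recovered reads, edgeR called 58, 53, 46, 54, 54 and 55 members in the 6 comparisons with Control. Of 316 calls against Control, DESeq2 lost 14, upper-quartile scaling 27 and total-read scaling 18. Calls gained were 3, 28 and 28 in that order, and 1 call turned direction under each of the scalings. Requiring 10 reads in every library left 43 of the 316 untested, which limits what depth allows for members with few reads. Among the alternatives, values called before or after changed direction, for the members named with every library, under the scalings only, by their construction. ROBO1 in shARID1B.2, called in neither, went from -0.012 to 0.0145 under edgeR with TMM. With upper-quartile and total-read scaling the log2 fold changes became 0.10 and 0.12 for EFNA5 in shARID1B.2, 0.15 and 0.14 for EPHB4 in shARID1A.2, 0.021 and 0.039 for EPHB4 in shARID1B.2, 0.079 and 0.104 for EPHB4 in shARID1A/B.4.2, 0.16 and 0.14 for ROBO1 in shARID1A.2, 0.11 and 0.12 for ROBO1 in shARID1B.2, 0.018 and 0.0072 for SEMA3F in shARID1A.2, and 0.16 and 0.18 for SEMA4C in shARID1A/B.4.2. With upper-quartile scaling EPHB3 became 0.0079 in shARID1A.2 and PLXNA2 0.0057 in shARID1A.4, and with total-read scaling PLXNA2 became 0.095 in shARID1B.2. Over all tested members, 13 values called before or after turned sign under each of these scalings, SEMA6A and UNC50 in shARID1A.2 among them, and none under edgeR or DESeq2.

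Replicate numbers did not pair the libraries: the 63 same-numbered pairs had correlations of their deviations from -0.0879 to 0.0529, none over 0.1. With the replicate number as a block, 57, 52, 46, 53, 52 and 54 members were called against Control, 60, 54 and 57 within labels, and 46, 51 and 54 between labels.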
